A study of Dicentrarchus labrax with 30 samples.

Results

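The comparison described here is bold against shy European sea bass (Dicentrarchus labrax) in whole brain. Its members are the 10 brain libraries among the 30 libraries of the series, 5 from fish labelled bold and 5 from fish labelled shy. Bold fish left shelter with a short delay, and shy fish left it very late or stayed inside. The 10 fish were the behavioral extremes of 4 risk-taking tests spread over 7 months, and the first 3 tests decided who was kept. All were sexed and killed at 478 days post fertilization after rearing at 21 °C, with no drug, diet or genotype treatment named for either group. The bold brains came from 2 females and 3 males and the shy brains from 3 females and 2 males, so sex was carried as a covariate. Pituitary and head kidney were taken too, 10 libraries each, but the labels do not say which libraries share a fish. Each brain was ground whole, so a gene used in 1 nucleus is averaged with all other cells. In such bulk tissue, fewer cells of a type and less RNA per cell cannot be told apart.

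Boldness in fish is a readiness to enter open or unfamiliar space. In vertebrates, it is studied alongside monoamine neurons, which set arousal and reward, and the hypothalamus, which starts the cortisol response through corticotropin-releasing hormone and its relatives. Neurons that have fired recently switch on immediate early genes within minutes, while receptor, channel and matrix genes describe slower properties of the tissue. Teleost brains keep dividing progenitors in many regions throughout life, and their microglia, vessels and meninges express immune and matrix genes as well.

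The libraries held 7916478 to 20067656 counts assigned to genes, and neuronal markers matched the label. SNAP25A, a fusion protein of synaptic vesicles, had a median of 787 CPM over the brain libraries, against 31.0 in pituitary and 0 in head kidney. The thyrotropin subunit TSHB (DLAgn_00096090) had a brain median of 0.0380 CPM, against 2368 CPM in pituitary. Of 37 neuronal identifiers, 30 had their highest median in brain, against 14 of 31 for astrocytes and radial glia and 19 of 50 for oligodendrocytes and myelin. Globin RNA was present at a low level, with HBAA1 at a brain median of 391 CPM against 256800 in head kidney. CPM values are counts scaled to a common library total and composition, but not for transcript length, so they are compared between libraries and not between genes.

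One shy female library, shy 4, stood apart from the other 9. Ribosomal protein genes took 0.0168% of its counts, against 1.55% to 1.85% in the bold libraries and 1.67% to 2.65% in the other shy libraries. It had counts for 19165 identifiers, and the other libraries for 22129 to 23421. Its median rank correlation with the other libraries was 0.731 (Spearman). Of the 40 gene lists used here, 31 had their lowest score in shy 4, where a score is the median, over a list's genes, of the log2 CPM minus that gene's median in the other 9 libraries. The score was -6.62 for ribosomal proteins, -4.28 for the glutamate synapse and -3.78 for oxidative phosphorylation, but 0.82 for the circadian clock. A male library, shy 1, lay between, with a median rank correlation of 0.925, against 0.979 to 0.991 for every pair among the other 8. Shy 1 had the highest ribosomal share, 2.65%, and a score of -1.28 for voltage-gated channels. Results below are given for all 10 libraries, for 9 without shy 4 and, where shy 1 matters, for 8 without both.

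**Figure D1:**
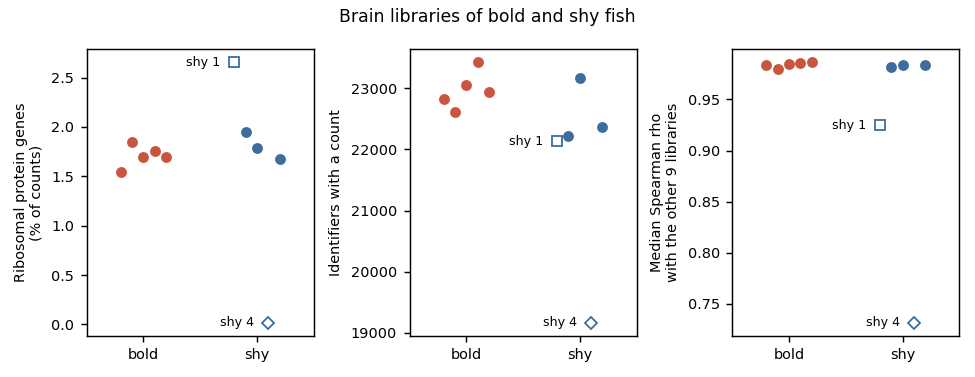
Each point is 1 brain library, bold in red and shy in blue, with the share of counts on ribosomal protein genes (percent), the number of identifiers with a count and the median of the Spearman correlations to its 9 fellow libraries on the vertical axes. The open diamond is shy 4, at 0.0168% and 19165 identifiers, and the open square is shy 1, at 2.65%.

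A single identifier passed the test. With 10 libraries, 1 of 18640 tested identifiers passed an adjusted p of 0.05 (0.00536% of those tested; edgeR's quasi-likelihood test with Benjamini-Hochberg adjustment). With 9 libraries it was 1 of 18937 (0.00528%), and with 8 libraries 1 of 19327 (0.00517%). This was DLAgn_00265390 each time, an identifier with no symbol in the files. It had 0.593, 0.901, 0.597, 1.14 and 1.15 CPM in the bold brains. The shy brains had 14.4, 8.87, 10.3, 8.61 and 6.24 CPM. Every bold value lay below every shy value, including that of shy 4. The counts behind these levels were 9 to 24 reads in the bold and 54 to 176 in the shy libraries. The level fell by 3.48 on the log2 scale in bold brains (SE 0.34, adjusted p = 0.0401 in edgeR), and by 3.5 without shy 4 (SE 0.31, adjusted p = 0.0155 in edgeR). The call was narrow for the 10 libraries: leaving out any one of bold 1 to 5 or of shy 1, 2, 3 and 5 ended it, with adjusted p up to 0.317 in edgeR, while the log2 change stayed between -3.74 and -3.28. DESeq2 gave an adjusted p of 2.17e-20 and limma voom with quality weights 0.00175 on the same 10 libraries.

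The same identifier was measured in the other tissues of these fish, which are not independent of the brains. CPM values of pituitary and head kidney were scaled with factors from all 30 libraries. The brain values printed for single libraries were scaled with factors from the 10 brain libraries, so the 2 scales differ. In pituitary the levels of DLAgn_00265390 were 0.0692 to 2.01 CPM in bold and 1.21 to 12.3 CPM in shy fish, so the groups overlapped in the lowest shy value. In head kidney they were 0 to 0.292 CPM in bold and 0.883 to 9.17 CPM in shy fish, with no overlap. A single edgeR fit of all 30 libraries, which treats libraries that share a fish as independent, gave log2 changes of -3.5 in brain (adjusted p = 0.376), -3.54 in pituitary (adjusted p = 0.115) and -5.85 in head kidney (adjusted p = 0.00394). The brain change minus the mean of the other two tissues was 1.19 (SE 0.83, adjusted p = 1 in edgeR). DLAgn_00205050, also without a symbol, was a counterpart in the other direction. It had 11.6, 12.6, 9.49, 8.71 and 11.8 CPM in the bold brains. Levels in the shy brains were 5.35, 7.15, 4.69, 5.61 and 6.13 CPM. The groups did not overlap, and the log2 difference was 0.87 with 10 libraries (adjusted p = 0.888 in edgeR) and 0.88 with 9 (adjusted p = 0.637 in edgeR and 0.039 in DESeq2). In pituitary it had 6.07 to 9.40 CPM in bold and 3.05 to 6.15 CPM in shy fish, and in head kidney 5.99 to 9.59 CPM in bold and 3.14 to 6.04 CPM in shy fish. On that scale of 30 libraries the brains had 7.10 to 9.99 CPM in bold and 3.79 to 5.59 CPM in shy fish.

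Another such identifier, DLAgn_00093850, split the shy fish themselves. It had 0.819 to 2.27 CPM in bold brains. The shy values were 15.8, 1.48, 11.5, 1.04 and 9.48 CPM, so 3 shy brains were high and 2 lay among the bold. These 2 were shy 2 and shy 4, the library that stood apart, which had 8 reads of this identifier. One shy pituitary and one shy head kidney were likewise at the bold level, with 0 and 0.290 CPM, while the other shy libraries had 4.41 to 11.6 CPM in pituitary and 17.4 to 21.9 CPM in head kidney. The brain log2 difference was -2.41 with 10 libraries and -2.64 with 9 (adjusted p = 0.888 and 0.637 in edgeR), and DESeq2 called it with 9 (adjusted p = 0.0062). What these 3 identifiers encode is not given in the files.

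**Figure D2:**
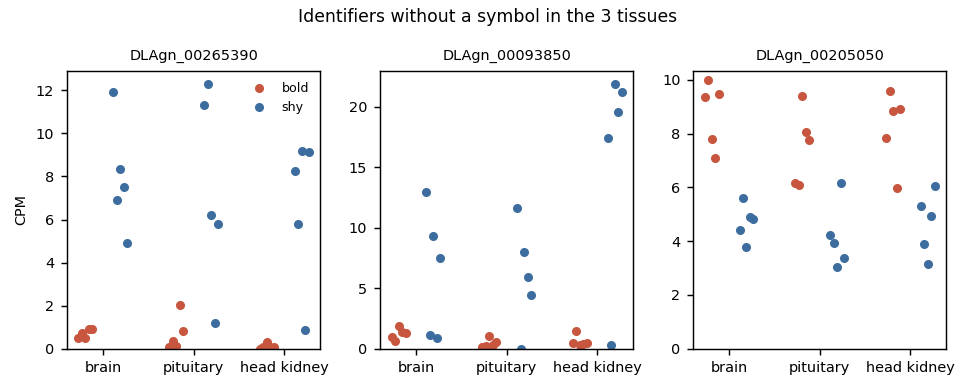
CPM (linear vertical axis, library-size factors from all 30 libraries) of 3 identifiers in each library, with bold (red) left of shy (blue) within brain, pituitary and head kidney. DLAgn_00265390 is low in bold fish in all 3 tissues, DLAgn_00093850 splits the shy fish, and DLAgn_00205050 is higher in bold fish with a small overlap in pituitary and head kidney.

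Among genes with a symbol, none passed in edgeR, and most differences were small beside their errors. The median absolute log2 change over all tested identifiers was 0.275 with a median SE of 0.363 for 10 libraries, and 0.165 with a median SE of 0.167 for 9. At an unadjusted p under 0.05 there were 254 identifiers with 10 libraries (1.36% of those tested), 96 with higher and 158 with lower levels in bold brains. There were 1217 with 9 libraries (6.43%), of which 426 had higher and 791 lower levels in bold, and 634 with 8 (3.28%), of which 344 had higher and 290 lower levels. The count was thus higher without shy 4, and without shy 1 as well the lower side no longer outnumbered the higher. The groups did not overlap for 189 identifiers with 10 libraries (1.01%) and for 341 with 9 (1.8%). DESeq2 called 2 of 18347 identifiers with 10 libraries (0.0109%) and 9 of 18925 with 9 (0.0476%). The 9 were CXCR4, ATP1B3A, ZN593, PLA2G1B and 5 identifiers without a symbol. One of these 5, DLAgn_00175130, had 6.52, 0.246, 3.58, 4.19 and 10.8 CPM in the bold brains. Among shy fish it had 0.277, 0.246, 0.117, 0 and 0 CPM, so that 4 bold brains lay above all shy brains and bold 2 did not (DESeq2 adjusted p = 0.00135 with 9 libraries). The filter on low counts asks for about 10 reads, at the median library size, in as many libraries as the smaller group holds. DLAgn_00175130 met it with 9 libraries through these 4 bold brains only, and could not meet it with 10. Its call is therefore not separate from how it entered the test.

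PLA2G1B (DLAgn_00114670), a secreted phospholipase A2 named for its release by the mammalian pancreas, had the smallest p among genes with a symbol with 10 and with 9 libraries. It had 0.593, 0.246, 0.299, 0.714 and 0.231 CPM in the bold brains. Shy levels of it were 1.48, 1.73, 1.88, 1.44 and 1.85 CPM. All bold values lay below all shy values, at low depth, with 3 to 15 reads in the bold and 11 to 32 in the shy libraries. With 10 and with 9 libraries it passed the filter on low counts through the shy brains only. Its lack of overlap and its rank by p are therefore not separate from how it entered the test. The log2 difference was -1.93 (SE 0.33, adjusted p = 0.888 in edgeR) and -2.00 without shy 4 (adjusted p = 0.637). DESeq2 called it in both sets, with adjusted p = 0.0157 for 10 libraries and 0.039 for 9. PARP11 (DLAgn_00208350), an enzyme that adds single ADP-ribose units to proteins, had a similar shape at 0.299 to 0.692 CPM in bold and 1.11 to 1.47 CPM in shy brains, with a log2 difference of -1.22 (adjusted p = 0.888 in edgeR). PARP11 too passed the filter through the shy brains only, so the same limit holds for it. SUGP1, a splicing factor, had 45.9, 51.5, 92.8, 92.8 and 42.6 CPM in the bold brains and 95.8 to 154.8 CPM in the shy brains. The groups again did not overlap (log2 difference -0.96, adjusted p = 0.888 in edgeR). Bold 3 and bold 4 lay far above the other bold brains and just below shy 3, at 95.8 CPM.

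2 lipid enzymes were among the genes with the smallest p on the lower side. LPL (DLAgn_00149800), which frees fatty acids from lipoproteins, had 4.48, 4.83, 4.66, 7.47 and 9.38 CPM in the bold brains. The shy brains had 12.7, 14.3, 30.5, 29.0 and 7.17 CPM. The groups overlapped only through shy 5, and the log2 difference was -1.50 (SE 0.45, adjusted p = 0.888 in edgeR). ACSBG2 (DLAgn_00121400), an acyl-CoA synthetase, had the same exception: 0.659 to 1.10 CPM in bold brains, and 0.925 CPM in shy 5 against 1.66 to 3.17 CPM in the other shy brains (log2 difference -1.40, adjusted p = 0.888). ACLYB (DLAgn_00030870), a copy of ATP-citrate lyase, which supplies acetyl-CoA for lipid synthesis, did not pass the filter on low counts with 10 libraries. It had 0 to 0.286 CPM in bold brains, 0.863 to 3.5 CPM in 4 shy brains and 0 in shy 4 (log2 difference -3.25 with 9 libraries and -2.40 with 8, adjusted p = 0.637 and 1.00 in edgeR). With 9 libraries ACLYB passed the filter through these 4 shy brains only, so its separation and its large change partly follow from the filter. The lipid handling list as a whole had 24 of 55 tested members above 0 with 10 libraries and 36 of 55 with 9 (medians -0.05 and 0.04).

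On the higher side, CXCR4 (DLAgn_00049010), the receptor of the chemokine CXCL12, which guides migrating neurons and leukocytes, had 11.7, 5.24, 10.3, 7.62 and 17.4 CPM in the bold brains. Levels in the shy brains were 2.77, 1.6, 3.22, 5.61 and 4.05 CPM. The single overlap was shy 4, which lay above bold 2. The log2 difference was 1.73 (SE 0.44, adjusted p = 0.888 in edgeR) and 1.86 without shy 4 (SE 0.39, adjusted p = 0.637), and DESeq2 called it with 9 libraries (adjusted p = 0.0062). CXCL1, a chemokine of the granulocyte-attracting group in mammals, had 12.9, 2.62, 3.22, 8.00 and 1.77 CPM in the bold brains. Shy brains had 1.84, 0.493, 1.94, 4.04 and 1.39 CPM, so the groups overlapped, with the highest shy value in shy 4. Bold 1 and bold 4, the bold females, had the highest levels. In the 8-library set shy 2 was the only shy male, and its CXCL1 level was the lowest of all. The log2 difference was 1.63 with 10 libraries (adjusted p = 0.888 in edgeR), 1.87 with 9 (adjusted p = 0.637) and 2.56 with 8 (SE 0.32, adjusted p = 0.0834), the second smallest adjusted p of the 8-library fit. TGFB1B, a copy of the growth factor TGF-beta 1, had 25.2 to 33.0 CPM in bold and 14.3 to 24.3 CPM in shy brains, without overlap (log2 difference 0.49, adjusted p = 0.888).

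ATP1B3A (DLAgn_00234480), a beta subunit of the sodium-potassium pump, had 82.2, 75.1, 85.5, 79.4 and 94.6 CPM in the bold brains. The shy values were 36.8, 32.9, 71.8, 9.52 and 50.2 CPM. The bold brains were close to each other and the shy brains were spread over a wide range below them. The log2 difference was 1.08 (SE 0.44) with 10 libraries and 0.87 (SE 0.19, adjusted p = 0.637 in edgeR) with 9, where DESeq2 gave an adjusted p of 0.0434. PEX7, which carries enzymes into peroxisomes, had 33.2 to 55.9 CPM in bold and 24.2 to 36.1 CPM in shy brains, and the highest shy value was that of shy 4 (log2 difference 0.63 with 10 libraries and 0.72 with 9, adjusted p = 0.888 and 0.637). B4GALNT1 (DLAgn_00130990), an enzyme of ganglioside synthesis, had 5.38 to 8.57 CPM in bold and 2.46 to 5.34 CPM in shy brains (log2 difference 1.10, adjusted p = 0.888). PPP1R3C (DLAgn_00086680), which brings a phosphatase to glycogen, had 1.06 to 3.1 CPM in bold and 0.522 to 1.27 CPM in shy brains (log2 difference 1.35, adjusted p = 0.888).

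**Figure D3:**
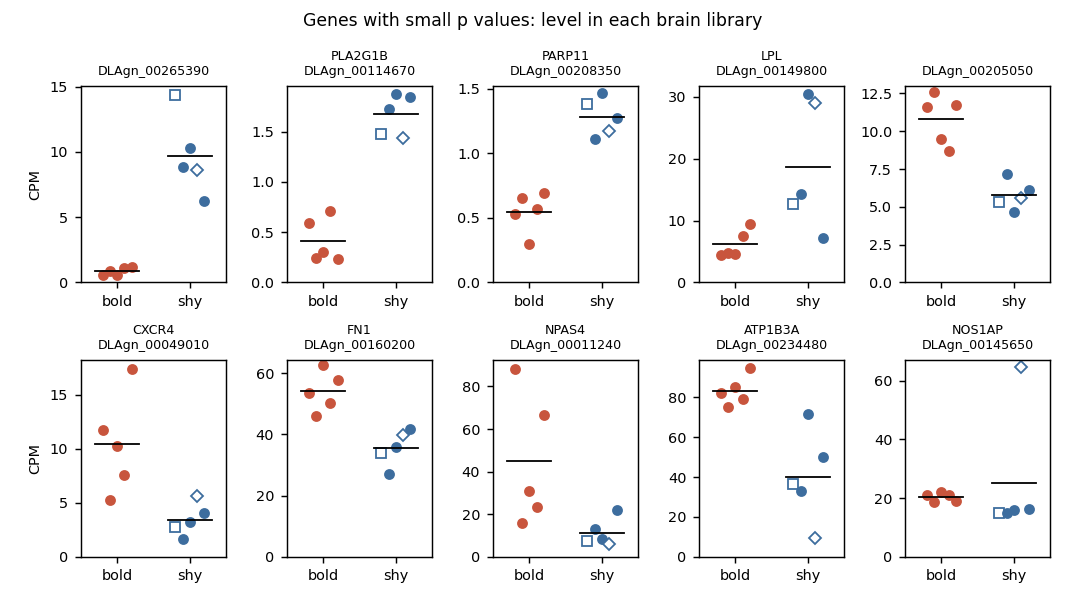
CPM of 10 genes in each brain library, with bold (red) left of shy (blue), shy 1 as an open square, shy 4 as an open diamond and the group mean as a line. The bold values of DLAgn_00265390 lie at 0.593 to 1.15 CPM and below all shy values, while NOS1AP separates the groups only when shy 4, at 64.6 CPM, is set aside.

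For several genes the sign or the size of the difference depended on shy 4. NOS1AP (DLAgn_00145650), an adaptor of neuronal nitric oxide synthase, had 20.9, 18.8, 22.2, 21.1 and 18.9 CPM in the bold brains. Among shy fish it had 14.9, 14.9, 15.9, 64.6 and 16.2 CPM. The 4 other shy brains lay close together below all bold brains, and shy 4 lay far above both. The log2 difference was -0.10 with 10 libraries and 0.41 with 9 (SE 0.10, adjusted p = 0.637 in edgeR). FLT1, a receptor of vascular endothelial growth factor, had 36.6 to 40.1 CPM in bold brains, 30.1 to 34.5 CPM in 4 shy brains and 85.1 CPM in shy 4, with log2 differences of -0.04 and 0.27. For ZN593, a zinc finger protein, shy 4 lay on the low side, and the size of the difference changed but not its sign. It had 29.4 to 37.8 CPM in bold brains, 38.7 to 58.8 CPM in 4 shy brains and 1.83 CPM in shy 4. The log2 difference of ZN593 was -0.19 with 10 libraries and -0.48 with 9. DESeq2 called ZN593 with 9 libraries (adjusted p = 0.0434). GTF2A2, a general transcription factor subunit, and PHF17, a chromatin protein, had the same arrangement. Their log2 differences were -0.18 and -0.41 for 10 libraries. For 9 libraries they were -0.44 and -0.59 (adjusted p = 0.637 each in edgeR).

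Immediate early genes tended to the higher side in bold brains, unevenly among fish. With 10 libraries, 41 of 62 tested members had a log2 difference above 0 and the median was 0.41. With 9 libraries it was 50 of 62 with a median of 0.34, and with 8 it was 53 of 64 with a median of 0.36. Without bold 1 the median of the 10-library fit was 0.19, and no other single library left out brought it below 0.31. With voom quality weights, which give less weight to libraries that vary more, it was 0.25. Over all tested identifiers, 50.7% (10 libraries), 49.7% (9) and 50.5% (8) were above 0, with medians of 0.0067, -0.0014 and 0.0018. No member passed an adjusted p of 0.05 in edgeR. At an unadjusted p under 0.05, 6 members were higher in bold with 10 libraries, where 0.515% of all identifiers were, and 8 with 9 libraries, where 2.25% were. None was lower.

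NPAS4 (DLAgn_00011240), a transcription factor that neurons make when calcium enters after firing, had 88.3, 16.1, 31.1, 23.3 and 66.8 CPM in the bold brains. Shy levels of it were 7.56, 13.1, 8.44, 5.87 and 22.0 CPM. Bold 1 and bold 5 were far above the rest, and bold 2 lay below shy 5. The log2 difference was 2.05 (SE 0.56, adjusted p = 0.888 in edgeR), 1.89 with 9 libraries and 1.77 with 8. The second NPAS4 identifier (DLAgn_00107840), named after its values were seen and possibly sharing reads with the first, had 81.6, 7.78, 32.3, 21.9 and 57.9 CPM in bold brains and 0.522 to 22.7 CPM in shy brains.

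RGS2, which shortens signalling by G protein-coupled receptors, had 2.44, 1.31, 3.04, 1.90 and 1.46 CPM in the bold brains. The shy brains had 0.737, 0.739, 0.997, 0.261 and 0.925 CPM, all below the bold values (log2 difference 1.46, adjusted p = 0.888 in edgeR). The other members at an unadjusted p under 0.05 with 9 libraries were SIK1, ATF3 (DLAgn_00072470), CYR61 (DLAgn_00146400), FOSL2 (DLAgn_00107880) and DUSP1, named after their values were seen. SIK1, a kinase induced by cyclic AMP, had 68.4, 17.8, 35.8, 20.8 and 50.2 CPM in the bold brains and 15.8 to 30.9 CPM in the shy brains. The same 3 bold fish, bold 1, 3 and 5, were thus the highest for NPAS4 and SIK1, and they were also the highest bold fish for DUSP1, at 32.8, 31.5 and 23.0 CPM against 13.4 and 14.7 CPM in bold 2 and 4. The FOS copies overlapped between the groups. FOS (DLAgn_00021560) had 14.8, 18.7, 15.0, 16.0 and 15.0 CPM in the bold brains, with bold 1, 3 and 5 the lowest bold fish. It had 14.0 to 19.8 CPM in the shy brains other than shy 4, which had 0.522 CPM. The other copy (DLAgn_00069440) had 28.8, 20.8, 32.4, 20.1 and 21.5 CPM in the bold brains and 17.6 to 26.4 CPM in the same 4 shy brains. Bold 1, 3 and 5 were the highest bold fish for this copy, so the 2 FOS copies ordered the bold fish in opposite ways. The time from capture to freezing was not given in the sources used here.

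Extracellular matrix genes lay mostly on the higher side in bold brains, with nearly the same median in each library set. With 10 libraries 57 of 76 tested members were above 0 (median 0.28), with 9 libraries 66 of 78 (median 0.28) and with 8 libraries 65 of 79 (median 0.23). At an unadjusted p under 0.05, 2, 8 and 12 members were higher in bold in the 3 sets, where 0.515%, 2.25% and 1.78% of all identifiers were, and none was lower, and none passed the adjusted threshold in edgeR. FN1 (DLAgn_00160200), a copy of fibronectin, which binds cells to the matrix, had 53.4, 45.9, 62.5, 50.2 and 57.9 CPM in the bold brains. Levels in the shy brains were 33.7, 27.1, 35.8, 39.8 and 41.9 CPM, so the groups did not overlap (log2 difference 0.63, SE 0.17, adjusted p = 0.888). The second copy (DLAgn_00048740) had 23.5 to 38.2 CPM in bold and 17.1 to 30.0 CPM in shy brains, with 1 bold value among the shy ones (log2 difference 0.67, SE 0.19). Another copy (DLAgn_00133670) had 4.67 to 8.83 CPM in bold and 1.48 to 7.92 CPM in shy brains.

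5 members did not overlap between the groups with either 10 or 9 libraries, all on the higher side, where 0.52% and 0.824% of all identifiers lay: FN1 (DLAgn_00160200), BCAN (DLAgn_00202400), COL6A1 (DLAgn_00001820), LAMA4 and ELNA, of which BCAN, LAMA4 and ELNA were named after their values were seen. BCAN encodes brevican, a proteoglycan of the brain's own matrix, and had 31.2 to 39.3 CPM in bold and 21.5 to 30.1 CPM in the shy brains other than shy 4, which had 6.65 CPM. LAMA4, a laminin chain of vessel basement membranes, had 40.2 to 46.2 CPM in bold and 23.1 to 38.5 CPM in shy brains (log2 difference 0.37). ELNA, an elastin copy, had 71.7 to 86.5 CPM in bold brains, 56.3 to 71.7 CPM in 3 shy brains, where the lowest bold and the highest shy value differ only beyond these digits, 14.1 CPM in shy 1 and 1.96 CPM in shy 4. Markers of meninges and fibroblasts, 20 of whose 31 identifiers the matrix list also holds, lay on the same side: 22 of 28 tested were above 0 with 9 libraries (median 0.26), and their summed level was 959 to 1290 CPM in bold and 892.5 to 1315 CPM in shy brains. Endothelial and pericyte markers had a summed level of 625.5 to 781.7 CPM in bold and 663.5 to 1013 CPM in shy brains. The highest shy sum was that of shy 4 for both marker groups. Without shy 4 the shy brains had 892.5 to 1197 CPM for meninges and fibroblasts and 663.5 to 755 CPM for endothelium and pericytes. The part of these markers in the matrix values was not tested.

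Cell cycle genes had 48 of 64 tested members above 0 with 10 libraries (median 0.33), 53 of 64 with 9 (median 0.23) and 53 of 65 with 8 (median 0.17), and the 10-library median was 0.20 with voom quality weights. At an unadjusted p under 0.05, 0, 6 and 3 members were higher in bold with 10, 9 and 8 libraries, where 0.515%, 2.25% and 1.78% of all identifiers were. None was lower, and none passed the adjusted threshold in edgeR. CENPF (DLAgn_00156880), a kinetochore protein, had 8.04, 11.5, 7.82, 13.3 and 12.3 CPM in the bold brains. The shy values were 3.5, 7.15, 6.86, 10.6 and 9.48 CPM, so the groups overlapped (log2 difference 0.62 with 10 libraries and 0.71 with 9, adjusted p = 0.888 and 0.637). ANLN (DLAgn_00173510), which builds the contractile ring, had 4.94 to 6.61 CPM in bold and 2.71 to 8.22 CPM in shy brains, the highest being shy 4. The next genes, FGFR1 and CDKN1B, are not members of the cell cycle list and do not enter its counts. FGFR1 (DLAgn_00114920), a fibroblast growth factor receptor of neural progenitors, had 49.2 to 65.0 CPM in bold and 37.5 to 50.1 CPM in shy brains, overlapping in 1 bold value (log2 difference 0.40 with 10 libraries and 0.43 with 9). CDKN1B (DLAgn_00170790), the cell cycle inhibitor p27, lay on the other side at 15.1 to 19.7 CPM in bold and 19.4 to 68.4 CPM in shy brains (log2 difference -0.86 with 10 libraries and -0.45 with 9). None of CENPF, ANLN, FGFR1 and CDKN1B passed the adjusted threshold in edgeR (adjusted p = 0.888 each with 10 libraries).

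The interferon response list tended to the lower side in bold brains. With 10 libraries 33 of 47 tested members had a log2 difference below 0 (median -0.36), with 9 libraries 34 of 49 (median -0.24) and with 8 libraries 31 of 51 (median -0.18). With 10 libraries 5 members were lower in bold and 1 higher at an unadjusted p under 0.05, where 0.848% and 0.515% of all identifiers were. With 9 libraries 13 members were lower in bold and 2 higher at an unadjusted p under 0.05, where 4.18% and 2.25% of them were. With 8 libraries, that is without shy 1 as well, these counts were 4 and 3, where 1.5% and 1.78% of all identifiers were. Leaving out shy 1 or shy 4 alone brought the median of the 10-library fit to -0.24, voom quality weights to -0.19 and omitting the filter to -0.17. No member passed in edgeR. IFIH1, the viral RNA sensor MDA5, had 17.3, 18.6, 20.7, 24.1 and 19.2 CPM in the bold brains. Among shy fish it had 42.0, 21.7, 34.3, 6.91 and 28.8 CPM, with shy 2 and shy 4 within or below the bold range (log2 difference -0.44 with 10 libraries and -0.67 with 9).

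CMPK2, a mitochondrial nucleotide kinase induced by interferon, had 2.13 to 3.33 CPM in the bold brains. Shy levels of it were 18.9, 2.1, 10.2, 1.04 and 6.24 CPM. The 3 high fish, shy 1, 3 and 5, were those that were high for DLAgn_00093850, and shy 2 and shy 4 were again at or below the bold range (log2 difference -1.51, SE 0.68, adjusted p = 0.888 in edgeR). IFIT5, named after its values were seen, repeated this, at 2.37 to 5.92 CPM in the bold brains against 20.4, 3.82, 9.97, 1.57 and 7.52 CPM in the shy brains. The list was not uniform. One NLRC5 identifier (DLAgn_00136570) and SAMHD1 (DLAgn_00228290) were higher in every bold than in every shy brain, where 0.52% of all identifiers were with 10 libraries and 0.824% with 9. A second NLRC5 identifier (DLAgn_00216370) was lower in every bold brain than in the 4 shy brains other than shy 4. It was not tested with 10 libraries. With 9, these 4 shy brains lay above the filter's limit on low counts and no bold brain did. With 9 libraries 1.8% of all identifiers did not overlap on either side. These 3 identifiers were named after their values were seen. NLRC5 directs genes of antigen presentation in mammals. The next genes, TAPBP and LCP1, are not members of the interferon list, where no member was lower in bold without overlap with 10 libraries. TAPBP, which loads peptides on class I molecules, had 17.7 to 24.6 CPM in bold and 26.0 to 82.1 CPM in shy brains, without overlap (log2 difference -0.85, adjusted p = 0.888 in edgeR). The antigen presentation list had 8 of 16 tested members above 0 with 10 libraries (median 0.0098) and 7 of 16 with 9 (median -0.04). LCP1 (DLAgn_00256420), an actin-bundling protein of leukocytes, had 8.30 to 12.9 CPM in bold and 13.0 to 26.6 CPM in shy brains, also without overlap (log2 difference -0.80, adjusted p = 0.888). The summed level of microglia and macrophage markers was 1380 to 1961 CPM in bold and 1455 to 2019 CPM in shy brains, with 16 of 26 tested members above 0 with 10 libraries. Its part in the immune values was not tested.

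**Figure D4:**
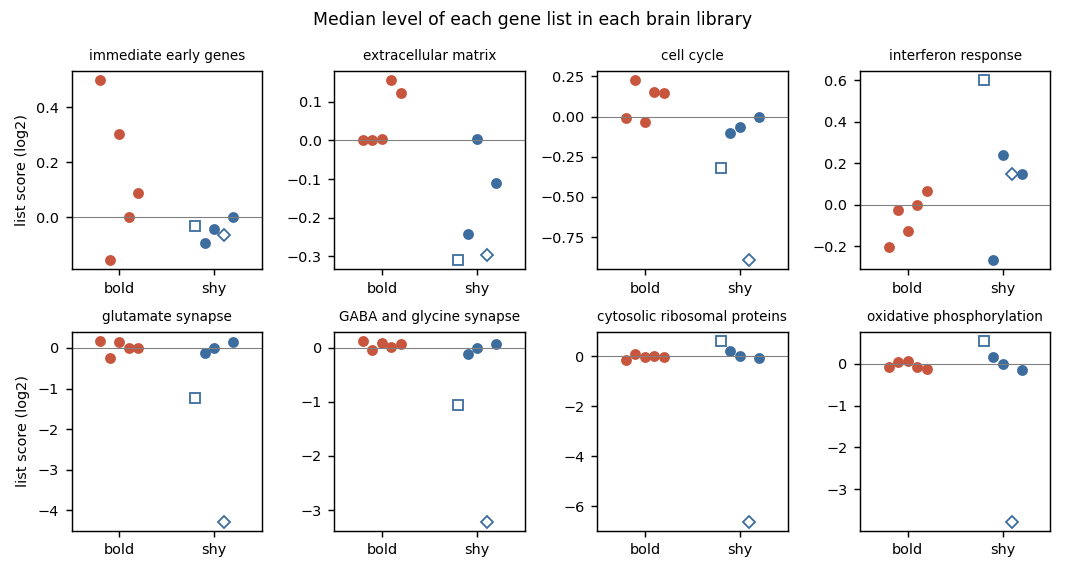
Score of 8 gene lists in each brain library (log2, each gene relative to its median over the 9 libraries other than shy 4), with bold (red) left of shy (blue), shy 1 as an open square and shy 4 as an open diamond. Shy 4 lies at -6.62 for ribosomal proteins and -4.28 for the glutamate synapse, while bold and shy overlap for all 8 lists.

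Synaptic gene lists had the highest medians with 10 libraries, and these were smaller without the libraries that stood apart. The GABA and glycine synapse had 47 of 54 tested members above 0 with a median of 0.61 for 10 libraries, 0.35 for 9 and 0.14 for 8. The glutamate synapse had medians of 0.58, 0.33 and 0.08, synaptic vesicle release 0.53, 0.31 and 0.07, and voltage-gated channels 0.55, 0.35 and 0.09. With 8 libraries 42 of 54, 56 of 83, 63 of 88 and 67 of 102 tested members of these lists were above 0. Of all identifiers 50.5% were. Leaving out shy 1 alone gave 0.45, 0.40, 0.35 and 0.32 for these 4 lists in the same order, and voom quality weights gave 0.21, 0.17, 0.14 and 0.18. No member passed in edgeR. The scores of shy 1 were -1.06 for the GABA and glycine synapse and -1.25 for the glutamate synapse, and the other 8 libraries lay between -0.24 and 0.17 for both. KCNH2 (DLAgn_00193240), a potassium channel that ends action potentials, had 8.30, 6.22, 3.94, 5.57 and 5.54 CPM in the bold brains. The shy brains had 2.58, 2.96, 4.10, 1.44 and 3.70 CPM, with bold 3 just below shy 3 (log2 difference 1.04 with 10 libraries and 0.87 with 9, adjusted p = 0.888 and 0.637). GABRG3 (DLAgn_00153230), a subunit of the GABA-A receptor, had 1.31 to 3.49 CPM in bold and 0.184 to 1.70 CPM in shy brains (log2 difference 1.46 and 1.25). SLC6A11A (DLAgn_00045280), a GABA transporter, had 12.4 to 20.1 CPM in bold and 1.57 to 14.8 CPM in shy brains. GRM2 (DLAgn_00094050), a glutamate autoreceptor, had 58.6 to 104.3 CPM in bold brains, and in shy brains 1.31 CPM in shy 4 and 60.5 to 91.2 CPM in the others.

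Ribosomal protein genes and the respiratory chain had medians of opposite sign in different library sets. With 10 libraries 37 of 53 tested ribosomal protein members were above 0 (median 0.05). With 9 libraries 3 of 54 were (median -0.26), and 22 were lower in bold at an unadjusted p under 0.05, where 4.18% of all identifiers were. With 8 libraries 5 of 54 were above 0 (median -0.11) and 6 were lower at that p, where 1.5% of all identifiers were. RPL34, a protein of the large subunit, had 214.8, 241.0, 231.5, 225.5 and 222.3 CPM in the bold brains. Levels in the shy brains were 345.8, 253.8, 226.8, 2.22 and 208.0 CPM, so that shy 1 and shy 4 stood on opposite sides of a narrow bold range. Both RPL22 identifiers had the same arrangement, with log2 differences of -0.32 (DLAgn_00136140) and -0.41 (DLAgn_00096830) for 9 libraries. Oxidative phosphorylation had medians of 0.04, -0.22 and -0.07 for 10, 9 and 8 libraries, with 45 of 71, 4 of 72 and 11 of 72 members above 0. In the 10-library fit both medians were also below 0 without bold 1 (-0.02 and -0.06) and without bold 4 (-0.08 and -0.05). ATP5I, an ATP synthase subunit, had 58.0 to 64.9 CPM in bold and 58.2 to 98.6 CPM in the shy brains other than shy 4, which had 2.61 CPM. The ribosomal share itself was 1.71% ± 0.11 of counts in bold (SD, n = 5) and 2.02% ± 0.44 in the shy brains without shy 4 (SD, n = 4), and did not pass an exact two-sided permutation test (p = 0.103, 0.258 adjusted over the 5 library measures, smallest possible p 0.00794). None of the 5 measures passed with 10 libraries either (adjusted p from 0.278 to 0.968 in the same exact permutation test).

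**Figure D5:**
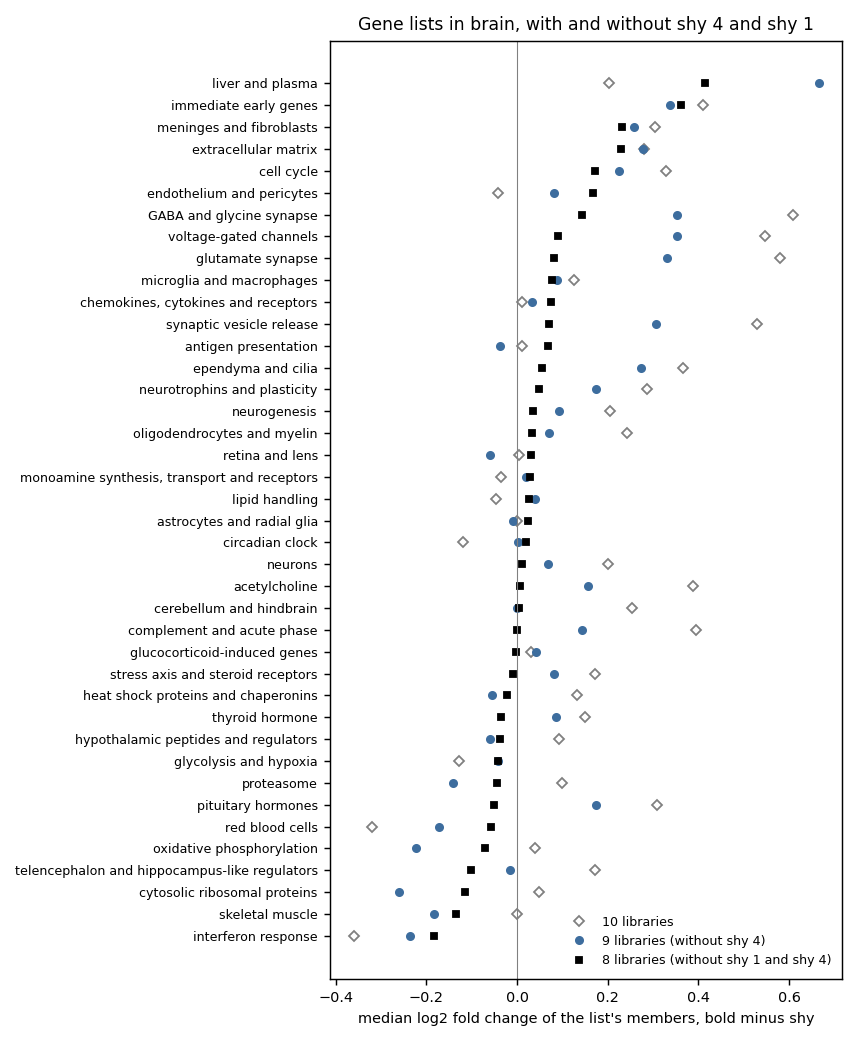
Median log2 fold change (bold minus shy) of the tested members of each of 40 gene lists, with all 10 libraries (open diamonds), 9 libraries without shy 4 (blue points) and 8 libraries without shy 1 and shy 4 (black squares). Immediate early, matrix and interferon lists keep their side in all 3 sets. The 3 synaptic medians for GABA and glycine, glutamate and vesicle release also stay above 0, but are only 0.14, 0.08 and 0.07 with 8 libraries.

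No tested gene of the stress axis or of the monoamines passed. The set of 19 symbols chosen for this comparison found 25 identifiers for 15 symbols, and of the 23 tested with 9 libraries adjusted p ranged from 0.637 to 0.983 in edgeR. No identifier carried the symbols CRH, NR3C2, BDNF or CYP19A1B, so these genes were not tested under those names. CXCR4 and 2 of the FN1 copies were the set's members at an unadjusted p under 0.05, all higher in bold with 9 libraries, where 2.25% of all identifiers were. TH (DLAgn_00165950), the first enzyme of dopamine synthesis, had 7.51, 3.93, 4.24, 6.33 and 6.61 CPM in the bold brains. The shy values were 2.86, 3.20, 2.81, 0.391 and 7.40 CPM, so the groups overlapped through shy 5 (log2 difference 0.84 with 10 libraries and 0.59 with 9, adjusted p = 0.888 and 0.637). TPH2, the neuronal enzyme of serotonin synthesis, had 2.64 to 4.26 CPM in bold and 3.75 to 13.3 CPM in shy brains (log2 difference -0.76 and -0.32). The serotonin transporter SLC6A4 (DLAgn_00029920) had 9.99 to 15.4 CPM in bold and 8.11 to 20.9 CPM in shy brains (log2 difference -0.09 and 0.14). The degrading enzyme MAO had 62.7 to 79.5 CPM in bold and 58.5 to 122.2 CPM in shy brains (log2 difference -0.03 and 0.11). The highest shy value was that of shy 4 for TPH2, SLC6A4 and MAO. Without shy 4 the shy brains reached 4.61, 15.0 and 77.5 CPM for these genes. The list of monoamine synthesis, transport and receptors had 26 of 52 tested members above 0 with 9 libraries (median 0.02), against 49.7% of all identifiers.

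For the stress axis, UCN3 (DLAgn_00089880), a peptide of the corticotropin-releasing hormone family, had 0.659, 1.15, 1.07, 1.14 and 0.538 CPM in the bold brains. Among shy fish it had 1.84, 2.22, 0.879, 1.31 and 3.47 CPM, overlapping in shy 3 (log2 difference -1.08, adjusted p = 0.888 in edgeR). The 2 copies of CRHBP, the binding protein of that family, had log2 differences of 0.01 (DLAgn_00081770) and -0.06 (DLAgn_00120190) with 9 libraries. The glucocorticoid receptor NR3C1 had 84.9 to 93.5 CPM in bold and 90.8 to 99.1 CPM in the shy brains other than shy 4 for DLAgn_00045010, and shy 4 had 535.9 CPM. The other copy (DLAgn_00110340) had 17.8 to 24.3 CPM in bold and 5.90 to 22.4 CPM in shy brains. SRD5A1, a steroid reductase, had 10.1 to 11.6 CPM in bold and 11.7 to 15.9 CPM in shy brains, a narrow gap without overlap (log2 difference -0.28, adjusted p = 0.888).

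FKBP5, a chaperone that glucocorticoids induce in many vertebrate tissues, had 50.6, 38.4, 141.4, 69.9 and 65.9 CPM in the bold brains. Shy levels of it were 29.9, 46.3, 147.7, 215.1 and 25.4 CPM, fully interleaved with the bold values (log2 difference -0.0024 with SE 0.79 for 10 libraries and 0.33 with SE 0.62 for 9). In the fit of all 30 libraries its log2 change was -0.04 in brain, 2.73 in pituitary and 3.23 in head kidney. The brain change minus the mean of the other tissues was -3.01 (adjusted p = 1 in edgeR). That contrast called 0 of 20598 identifiers (0%), with 673 at an unadjusted p under 0.05, and 0 of 20915 without brain shy 4, with 735. The glucocorticoid-induced list had 22 of 40 tested members above 0 in brain with both 10 and 9 libraries (medians 0.03 and 0.04). Its 2 members without overlap in either set, both higher in bold, where 0.52% and 0.824% of all identifiers lay, were TSC22D3 (DLAgn_00108510), the leucine zipper protein GILZ, at 6.88 to 9.00 CPM in bold and 0 to 6.33 CPM in shy brains, and CEBPD, at 4.09 to 6.52 CPM in bold and 0.131 to 3.93 CPM in shy brains.

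Whether the behavior difference itself differed between males and females was tested by an interaction term. It called 0 of 18640 identifiers in edgeR with 10 libraries (0%), with 76 at an unadjusted p under 0.05, and 0 of 18937 with 9, with 825. DESeq2 called 1 of 18607 with 10 libraries (0.00537%) and 3 of 18933 with 9 (0.0158%). The single call was EFCAB4B (DLAgn_00165350), a calcium-binding protein (adjusted p = 0.045 with 10 libraries and 0.00639 with 9 in DESeq2), and 9 libraries added PRF1 (DLAgn_00237490), the pore-forming protein of killer lymphocytes, and an identifier without a symbol. These were named after their values were seen. EFCAB4B had 20.8, 16.7 and 20.8 CPM in bold males against 11.9 and 7.76 CPM in shy males, and 11.4 and 12.0 CPM in bold females against 29.5, 30.0 and 19.7 CPM in shy females. PRF1 had 16.0, 22.3 and 27.4 CPM in bold males against 8.76 and 5.17 CPM in shy males, and 15.1 and 12.8 CPM in bold females against 28.7, 0.261 and 26.2 CPM in shy females, the low value being that of shy 4. Each sex and behavior held 2 or 3 fish, and the median SE of this term was 0.729 on the log2 scale with 10 libraries.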

How the data were processed

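RNA was measured in 30 libraries, of which the 10 brain libraries are analysed here. Per the labels' protocols, the libraries were stranded TruSeq mRNA libraries, sequenced on 3 HiSeq lanes with single reads 50 nt long. Tools named in the submitters' processing notes are featureCounts 1.6.2, TopHat2 2.1.1 with Bowtie2 2.2.9, SAMtools 1.5, FastQC and bcl2fastq 2.20. Which genome build and annotation were used, and whether counting used strand, was not given in the sources used here. Reads of overlapping or near-identical genes may therefore be split or shared between identifiers.

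The authors deposited whole-number counts per gene, unnormalized, for 26719 identifiers, of which 5479 have no symbol. The reference gene table held 0 of these identifiers, so the files' symbols were used. All 45 pairs of brain libraries differed (0 identical). Groups and sex came from the labels, and each brain was treated as 1 fish.

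Counts were tested in R 4.3.3 with edgeR 4.0.16 (quasi-likelihood test, robust, TMM scaling, filterByExpr with a minimum count of 10) in a model of sex and behavior, with Benjamini-Hochberg adjustment over all tested identifiers and a threshold of 0.05. Fold changes are log2 of bold over shy. Bold and shy shares of library composition were compared with an exact permutation test. The scripts were tested on simulated data. Alternatives were median-of-ratios scaling, DESeq2 1.42.0, limma 3.58.1 voom with quality weights, no filter, a filter of 1 CPM in 5 libraries, no covariate, non-robust shrinkage and leaving out each library. Figures were drawn with matplotlib 3.10.9.

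The 40 gene lists were matched by exact symbol or by symbol with a copy suffix A or B. Named genes are those ranked 1 to 12 by p on either side with 10 or 9 libraries, the top 2 members of each list by p, and a set of 19 symbols; not all of them are described, and others are marked as named after their values were seen. The members and lists were chosen with earlier results of these data known.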

Additional observations from a re-analysis of the deposited data

Results flagged for a closer look

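In a group of 5 libraries, a value was picked out when its gap to the nearest other value exceeded 0.71 of the group's range (Dixon's criterion). This was checked in 172 groups of values, bold and shy separately, and picked out 16, of which 14 were shy 4. Chance picks out about 1 in 20 such groups, or 8.6 here if they were independent, but all groups share the same libraries. The genes checked also included those chosen by a small p without shy 4, a choice that can favor genes where shy 4 stands out. The 16 can therefore not be weighed against 8.6. Ribosomal protein values were not checked in this way, since a low ribosomal share is what set shy 4 apart to begin with.

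Shy 4 was far above the other shy brains for NOS1AP (DLAgn_00145650; 64.6 CPM), CDKN1B (DLAgn_00170790; 68.4 CPM), NR3C1 (DLAgn_00045010; 535.9 CPM), TAPBP (82.1 CPM), FLT1 (85.1 CPM), TPH2 (13.3 CPM), CRY2 (204.2 CPM) and DUSP1 (32.1 CPM). It was far below them for GTF2A2 (2.48 CPM), CEBPD (0.131 CPM) and both CRHBP copies (1.17 CPM for DLAgn_00081770 and 0.131 CPM for DLAgn_00120190). The same held for its number of identifiers with a count (19165) and its score for oxidative phosphorylation (-3.78). The other values were bold 1 for the NLRC5 identifier DLAgn_00216370 (0.264 CPM) and shy 1 for ACLYB (DLAgn_00030870; 3.5 CPM).

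The bold minus shy difference itself differed between males and females for EFCAB4B and PRF1 in DESeq2 with 9 libraries. The log2 interaction was 2.06 for EFCAB4B (DLAgn_00165350; adjusted p = 0.00639) and 2.63 for PRF1 (DLAgn_00237490; adjusted p = 0.000184). EdgeR called neither.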

How the results depend on the processing

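No paired analysis was possible because the labels give the brains no replicate numbers that link a bold to a shy fish. With DESeq2 the called identifiers numbered 2 with 10 libraries and 9 with 9, and the behavior by sex interaction 1. Leaving out 1 library gave 0 to 1 calls with 10 libraries and 0 to 2 with 9 in edgeR, with 1 call under each of the other alternatives.

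Of 76 named genes, 12 had a sign that differed in at least 1 alternative, 8 of them without shy 4; none of these passed in edgeR, and the cause was not tested. With voom the log2 difference was 0.40 for NOS1AP, 0.27 for FLT1, 0.17 for FKBP5, 0.073 for MAO, -0.071 for RPL34, and -0.016 (DLAgn_00081770) and -0.092 (DLAgn_00120190) for CRHBP. Without shy 1 and shy 4 it was 0.41 for NOS1AP, 0.26 for FLT1, 0.062 for MAO, -0.046 for RPL34 and -0.12 for CRHBP (DLAgn_00120190). It was 0.019 for RPL22 (DLAgn_00136140) with no covariate and 0.015 for FKBP5 with no filter. Over the 10 single libraries left out it ranged from -0.24 to 0.41 for NOS1AP, -0.32 to 0.14 for RPL22 (DLAgn_00136140), -0.41 to 0.075 for RPL22 (DLAgn_00096830), -0.28 to 0.14 for SLC6A4, -0.35 to 0.11 for ATP5I, -0.14 to 0.27 for FLT1, -0.45 to 0.43 for FKBP5, -0.12 to 0.11 for MAO, -0.20 to 0.31 for RPL34, -0.056 to 0.43 for CRHBP (DLAgn_00120190) and -0.044 to 0.39 for FOS (DLAgn_00021560).

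List medians moved by more than the spread between fish for endothelium and pericytes (0.15 with voom, 0.17 without shy 1 and shy 4, -0.070 to 0.11 over single libraries), red blood cells (-0.064, -0.057 and -0.48 to -0.056), lipid handling (0.042 with voom, -0.075 to 0.039), neurotrophins and plasticity (0.049 without shy 1 and shy 4), liver and plasma (0.17 to 0.67), glucocorticoid-induced genes (-0.012 to 0.077) and immediate early genes (0.19 to 0.51). The spread used here includes shy 4, so it is wide for lists where shy 4 lay far out. Ribosomal proteins, oxidative phosphorylation and the synaptic lists could therefore hardly exceed it, and their absence here does not mean that their medians were stable. The bold minus shy share of counts ranged over single libraries from -0.306 to 0.353 percentage points for ribosomal proteins, -0.134 to 0.176 for the respiratory chain and -0.0106 to 0.00779 for red blood cells. For identifiers with a count the difference was 492 to 1494, and only without shy 3 did it reach the smallest possible unadjusted p (exact permutation p = 0.00794). Total counts were 11814745 to 20067656 in bold and 7916478 to 16405541 in shy libraries, with shy 3 the deepest of the shy. The part of depth in this difference was not tested. At 5 fish a group, and with low counts for several named genes, differences near the median SE (0.363 on the log2 scale with 10 libraries) could not be told from the spread between fish.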

Other observations

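Other gene groups were described in the same way, and no member passed an adjusted p of 0.05 in edgeR. HSF2 (DLAgn_00261850), a heat shock transcription factor, had 28.7, 26.9, 24.7, 26.7 and 27.9 CPM in the bold brains. In the shy brains it had 18.6, 24.3, 21.6, 19.6 and 20.6 CPM. The groups did not overlap, and shy 4 lay within the shy range (log2 difference 0.37 with 10 libraries and 0.34 with 9, adjusted p = 0.888 and 0.637). Its list of heat shock proteins and chaperonins had 30 of 43 members above 0 with 10 libraries and 16 of 43 with 9 (medians 0.13 and -0.06). A2M, a plasma protease inhibitor, had 5.65 to 8.52 CPM in bold and 2.67 to 6.21 CPM in shy brains (log2 difference 0.83 and 0.79). C3, the central complement protein, had 2.70 to 13.5 CPM in bold and 2.22 to 4.81 CPM in shy brains (log2 difference 1.31 and 1.20). Bold 2 lay among the shy brains for both, with 5.65 and 2.70 CPM.

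The identifier DLAgn_00251810, labelled MOG after a protein of the outer myelin surface, had 2.24, 0.983, 0.597, 3.05 and 0.999 CPM in the bold brains. In the shy brains it had 0.369, 0.863, 0.762, 0.261 and 1.04 CPM. Bold 1 and bold 4, both female, were above all others, and the rest overlapped (log2 difference 1.28 with 10 libraries and 1.10 with 9). On the scale of 30 libraries this identifier had a median of 0.726 CPM in brain, 1.04 in pituitary and 2.01 in head kidney. The myelin gene MBPA had 527.6, 1.10 and 0 CPM in that order, so this MOG identifier did not follow myelin across tissues. CRY2, a repressor of the circadian clock, had 54.8 to 63.7 CPM in bold brains, 59.4 to 69.0 CPM in 4 shy brains and 204.2 CPM in shy 4. The clock list had 14 of 42 members above 0 with 10 libraries and 22 of 42 with 9 (medians -0.12 and 0.0020). Regulators of the telencephalon had medians of 0.17 and -0.02 with 10 and 9 libraries, and markers of cerebellum and hindbrain 0.25 and 0.00033.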
